A study of Homo sapiens with 6 samples.

Results

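The genes described here encode the machinery that displays peptides on HLA class I molecules: the heavy chains HLA-B, HLA-C, HLA-E and HLA-F, the light chain B2M, the peptide transporter subunits TAP1 and TAP2, the loading chaperone TAPBP (tapasin) and the transactivator NLRC5. They were taken as 9 genes of 20037 protein-coding genes, and every deposited peak on the main chromosomes that overlapped a gene's span or the 5 kb on either side was assigned to it. Chromatin accessibility had been profiled by ATAC-seq, in which a transposase inserts sequencing adapters into open DNA, in NCI-H1703. This is an established human cell line that the labels assign to squamous carcinoma of the lung. DLGAP1-AS2, a long non-coding RNA, had been silenced for 3 libraries, and 3 further libraries were controls. The titles of the silenced libraries carry the letters ASO, and neither the control reagent nor the time after treatment is given. Both groups were the same line, with no other agent or allele recorded. Accessibility does not measure the silenced RNA, so its loss was not checked here. Each library was prepared from 10000 to 50000 cells. The comparison asks whether accessibility at these genes differed between cells with DLGAP1-AS2 silenced and control cells.

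Class I molecules carry peptides made by the proteasome to the cell surface, where cytotoxic T cells and natural killer cells read them. TAP1 and TAP2 pump the peptides into the endoplasmic reticulum, TAPBP holds an empty heavy chain with its B2M partner next to the pump, and the loaded complex then leaves for the surface. Tumours often lower this machinery at the level of transcription. NLRC5 acts through a proximal promoter module that the heavy chain genes and B2M share, and interferon-regulated factors act through separate elements.

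The sequences just upstream of the gene starts are shown because the peaks nearest the starts are the main values reported below, and because those of TAPBP, unlike the others, lay under no peak. Of the 9 genes, 7 were found in the RefSeq table of promoters (GRCh38.p14), and HLA-E and NLRC5 had no entry. The 250 bases before each start are printed 5′ to 3′ on the strand of the gene. These are reference sequences, not the alleles of the cell line. On chromosome 6 they are chr6:31357180-31357429 (minus strand) for HLA-B, chr6:31272093-31272342 (minus) for HLA-C, chr6:29723184-29723433 (plus) for HLA-F, chr6:32853705-32853954 (minus) for TAP1, chr6:32838740-32838989 (minus) for TAP2 and chr6:33314079-33314328 (minus) for TAPBP. The B2M sequence is chr15:44711267-44711516 (plus). Capitals mark matches on either strand to AANNGAAA (the core of elements bound by interferon regulatory factors, IRF), CCAAT (the box bound by NF-Y) and TGACG (the core of the cyclic AMP response element, CRE).
HLA-B: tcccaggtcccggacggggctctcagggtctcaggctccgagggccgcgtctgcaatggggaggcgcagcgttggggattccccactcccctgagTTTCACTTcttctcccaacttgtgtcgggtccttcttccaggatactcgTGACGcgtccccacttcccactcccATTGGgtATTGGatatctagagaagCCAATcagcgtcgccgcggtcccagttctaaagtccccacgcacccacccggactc
HLA-C: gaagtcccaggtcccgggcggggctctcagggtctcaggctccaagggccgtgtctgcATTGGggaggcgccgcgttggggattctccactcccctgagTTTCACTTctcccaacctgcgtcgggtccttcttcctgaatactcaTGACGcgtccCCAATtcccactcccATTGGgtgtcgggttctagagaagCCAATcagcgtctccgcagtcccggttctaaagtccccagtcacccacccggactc
HLA-F: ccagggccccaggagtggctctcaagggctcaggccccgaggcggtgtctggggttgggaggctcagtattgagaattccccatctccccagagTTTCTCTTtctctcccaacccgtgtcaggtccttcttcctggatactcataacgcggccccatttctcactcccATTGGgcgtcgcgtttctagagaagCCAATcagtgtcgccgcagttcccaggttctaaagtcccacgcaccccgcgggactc
B2M: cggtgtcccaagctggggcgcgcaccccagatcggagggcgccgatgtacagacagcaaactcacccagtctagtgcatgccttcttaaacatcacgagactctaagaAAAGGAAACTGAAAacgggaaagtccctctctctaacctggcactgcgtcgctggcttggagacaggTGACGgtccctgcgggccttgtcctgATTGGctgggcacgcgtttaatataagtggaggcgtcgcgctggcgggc
TAP1: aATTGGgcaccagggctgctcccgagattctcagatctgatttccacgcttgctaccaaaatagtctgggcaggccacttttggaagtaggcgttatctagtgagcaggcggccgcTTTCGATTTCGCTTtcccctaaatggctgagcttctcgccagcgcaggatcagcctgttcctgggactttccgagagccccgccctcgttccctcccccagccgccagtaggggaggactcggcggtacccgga
TAP2: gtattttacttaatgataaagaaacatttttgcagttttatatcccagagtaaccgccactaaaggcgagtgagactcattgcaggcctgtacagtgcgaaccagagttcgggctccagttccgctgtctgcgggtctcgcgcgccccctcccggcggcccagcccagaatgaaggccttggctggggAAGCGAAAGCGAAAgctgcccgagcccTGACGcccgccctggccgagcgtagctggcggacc
TAPBP: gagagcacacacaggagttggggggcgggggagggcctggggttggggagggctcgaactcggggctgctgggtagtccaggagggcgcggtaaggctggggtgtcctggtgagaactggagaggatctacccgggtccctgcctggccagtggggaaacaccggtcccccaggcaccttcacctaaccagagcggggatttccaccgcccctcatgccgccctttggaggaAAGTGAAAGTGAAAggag

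The IRF core was found in 7 of 7 sequences. In HLA-B, HLA-C and HLA-F it lay within a few bases of the same distance from the start, beginning 155, 151 and 156 bases upstream. B2M, TAP1, TAP2 and TAPBP each held 2 adjacent IRF cores that overlap by their last and first bases, and those of TAPBP ended 5 bases before its start. CCAAT was found in 5 of 7 (HLA-B, HLA-C, HLA-F, B2M and TAP1) and TGACG in 4 of 7 (HLA-B, HLA-C, B2M and TAP2). IRF core, CCAAT and TGACG occurred together in HLA-B, HLA-C and B2M. A match to the NF-kB consensus was found in 5 of 7, all except HLA-F and TAP2, and is not capitalised. In HLA-B this consensus matched at 2 overlapping positions. Over all 35116 promoters of the table, in windows of the same length, the IRF core was present in 20.3%, CCAAT in 32.0%, TGACG in 21.2%, the NF-kB consensus in 9.96%, and IRF core, CCAAT and TGACG together in 1.19%. The motifs were chosen with these sequences in view, and a match is a description of the letters only. Among the heavy chain genes, the 250 bases were 90.4% identical between HLA-B and HLA-C, 82.0% between HLA-B and HLA-F and 81.2% between HLA-C and HLA-F. All other pairs among the 7 sequences were 56.4% to 60.0% identical. Reads from such near-identical copies can be placed at the wrong one or dropped, so the split of signal between heavy chain genes is uncertain.

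Some properties of the libraries touch the values that follow. The peak lists held 91346 to 170882 peaks, with control replicate 2 the shortest and silenced replicate 3 next at 121406. Control replicate 2 had 2.46% of its peaks below a height of 4, against 48.1% to 52.1% in the other 5. Silenced replicate 3 had the lowest heights: its median height over peaks at the starts of 12061 genes was 18, against 36 to 43 in the others. Across genes, its scores correlated with those of other libraries at r of 0.841 to 0.856, and all pairs without it at 0.908 to 0.912. Total read numbers are not known, so the heights of start peaks are also given divided by this median, called relative heights. Of the squamous markers looked up, SOX2 had a start peak in all 6 libraries (height 10 to 22). KRT5 and KRT6A had none, and TP63, KRT14 and DSG3 each had 1 in a single library, at a height of at most 3. The alveolar markers NKX2-1 (16 to 36), SFTPC (5 to 11) and NAPSA (5 to 12) and the mesenchymal markers VIM, PDGFRA and ZEB1 had one in all 6. Among the squamous markers, SOX2 was thus the one with a start peak in every library. Of the leukocyte markers, PTPRC had none and CD3E had one in 3 of 6, at a height of at most 4.

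All 9 genes were marked by peaks in all 6 libraries. The windows held 30, 31 and 23 peaks in silenced replicates 1 to 3 and 26, 27 and 26 in the control replicates, which gives 28 ± 4.36 (SD, n = 3) against 26.3 ± 0.577 (SD, n = 3). Peaks covered 13.8, 14.2 and 9.44 kb of the windows in the silenced libraries and 12.7, 12.9 and 12.4 kb in the controls, or 3.73% to 5.60% of the sequence searched. The cells were measured in bulk, so fewer cells with an open site and less openness per cell cannot be told apart. The silenced range encloses the control range in both measures, and its lowest value is silenced replicate 3 each time.

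Merging overlapping peaks over libraries gave 51 regions in these windows, of 507440 in the series. Of the 51, 16 (31.4%) were called in all 6 libraries, against 7.35% of all regions. Another 23 (45.1%) were called in a single library, against 74.1% of all regions, and none of those 23 was taller than 9. The 16 regions shared by all libraries lay at or next to the starts of all 9 genes, at PSMB8 and HLA-DOB starts within the TAP1 and TAP2 windows, at 3 further places around TAPBP, and near the ends of HLA-F and NLRC5. No region was called in all silenced and no control libraries, where 0.130% of all regions were. None was called in all control and no silenced libraries either, where 0.200% of all regions were.

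Heights are the authors' pileup of reads at the top of a peak, and each start peak is given with its 6 heights, silenced replicates 1 to 3 first. HLA-B and HLA-C, the classical heavy chains that present peptides to T cells, have starts at 31357179 and 31272092 on chromosome 6 (GRCh38, minus strand). The HLA-B peak reached 34, 48 and 34 in the silenced libraries and 43, 53 and 50 in the controls. The HLA-C peak reached 61, 77 and 49, and 64, 104 and 65. The relative heights were 0.944, 1.12 and 1.89 against 1.13, 1.23 and 1.28 for HLA-B. They were 1.69, 1.79 and 2.72 against 1.68, 2.42 and 1.67 for HLA-C. HLA-C was taller than HLA-B in 6 of 6 libraries, and for both genes the silenced and control ranges overlapped on either scale.

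HLA-E, whose product is read by natural killer cell receptors, had its peak at the lower end of its span (30489509 to 30494194 on chromosome 6), which was taken as its start because its strand was not in the table of starts. It reached 74, 74 and 52 in the silenced libraries and 80, 100 and 85 in the controls. Every control library was above every silenced library in raw height, as in 7.74% of the 12061 genes with a start peak in all libraries. The relative heights were 2.06, 1.72 and 2.89 against 2.11, 2.33 and 2.18, and the control values lay within the silenced range. Of the silenced values only that of silenced replicate 3 was above a control value. HLA-E had a rank of 1 to 3 among the 9 genes in every library. HLA-F, a non-classical heavy chain, starts at 29723434 on chromosome 6 (plus strand) and had heights of 55, 71 and 39 against 68, 65 and 57, with the control values inside the silenced range. The relative heights were 1.53, 1.65 and 2.17 against 1.79, 1.51 and 1.46, which overlap.

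B2M, on chromosome 15 with its start at 44711517 (plus strand), encodes the light chain of class I molecules. Its start peak, which also covered the start of the neighbouring gene PATL2, reached 74, 55 and 58 in the silenced libraries and 72, 86 and 61 in the controls. Relative to the library median it was 2.06, 1.28 and 3.22 against 1.89, 2.0 and 1.56, so silenced replicates 2 and 3 were the lowest and the highest of the 6.

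TAP1 starts at 32853704 on chromosome 6 (minus strand), 488 bases from the start of PSMB9, a subunit of the immunoproteasome that is transcribed the other way. A single peak covered both starts and its signal cannot be divided between them. It reached 75, 97 and 23 in the silenced libraries and 74, 95 and 76 in the controls. Silenced replicate 3 was the low one, at 1.28 times its library median, where the other 5 libraries were at 1.95 to 2.26 times theirs. TAP2 (start at 32838739, minus strand) reached 62, 55 and 26 against 47, 64 and 62, or 1.72, 1.28 and 1.44 against 1.24, 1.49 and 1.59 times the median, which overlap.

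NLRC5, on chromosome 16 (span 56989557 to 57083520), had its start peak at the lower end of its span and the lowest of all 9 in every library. The heights were 14, 17 and 8 in the silenced libraries and 15, 21 and 12 in the controls. Relative to the library median they were 0.389, 0.395 and 0.444 against 0.395, 0.488 and 0.308. Among the start peaks of 12061 genes they stood between the 8.78th and the 19.7th percentile. The peak was present in all 6 libraries, with an FDR (the authors' adjusted p for the peak) of at most 3.37e-06.

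**Figure D1:**
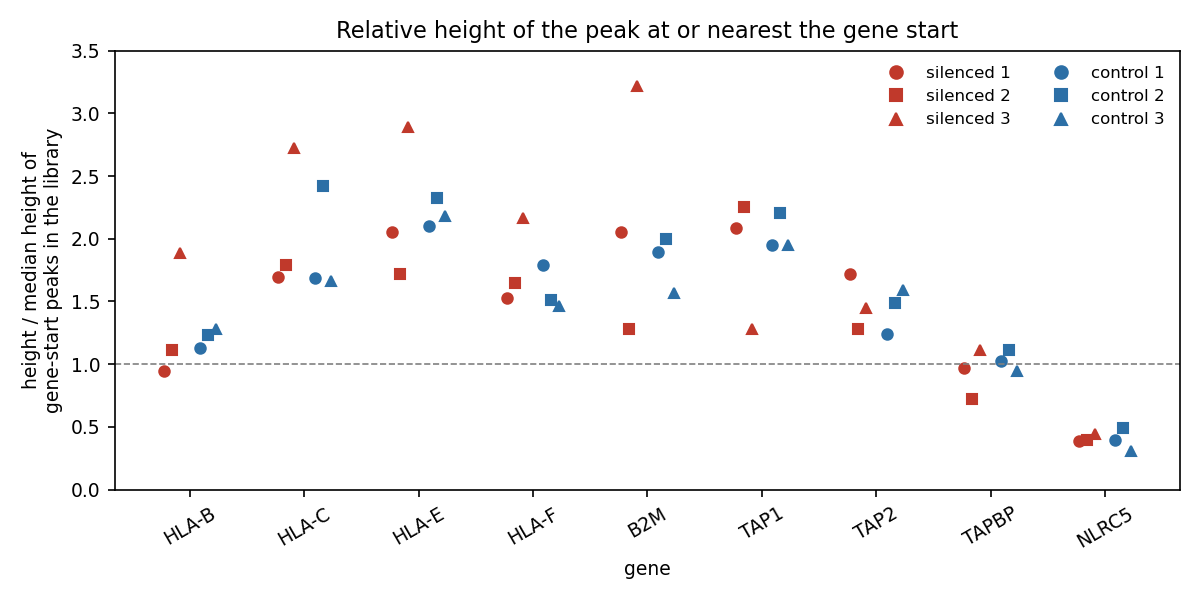
Height of the peak at or nearest the start of each gene (x axis), divided by the median height of gene-start peaks in the same library (y axis, no unit, dashed line at 1), with 1 point per library, silenced in red and control in blue. NLRC5 lies between 0.308 and 0.488 in all 6 libraries, and the triangles of silenced replicate 3 are the highest of 6 for HLA-B, HLA-C, HLA-E, HLA-F and B2M and the lowest for TAP1.

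Averaged over the 6 libraries, the relative heights ran from 2.21 ± 0.387 (SD, n = 6) for HLA-E through 2.0 ± 0.666 for B2M, 2.0 ± 0.457 for HLA-C and 1.95 ± 0.355 for TAP1, to 1.69 ± 0.264 for HLA-F, 1.46 ± 0.184 for TAP2, 1.27 ± 0.327 for HLA-B, 0.983 ± 0.146 for TAPBP and 0.403 ± 0.0607 for NLRC5. The upper part of this order was not separated by its spread: B2M was taller than HLA-C in 3 of 6 libraries, TAP1 taller than HLA-C in 4 of 6 and TAP1 taller than B2M in 5 of 6. It also rested on silenced replicate 3, without which TAP1 came first at 2.09 ± 0.143 (SD, n = 5), before HLA-E at 2.08 ± 0.224, HLA-C at 1.85 ± 0.321 and B2M at 1.76 ± 0.329. At the lower end the order was the same without that library, with HLA-B taller than TAPBP in 5 of 6 and TAPBP taller than NLRC5 in 6 of 6. On the relative scale no start peak of the 9 genes separated the groups. For HLA-B and HLA-E the overlap rested on silenced replicate 3 alone, a pattern noticed after the values were seen. Its share over all genes was not computed. With all 6 libraries kept, the controls were all higher in 4.26% of start peaks and the silenced libraries in 7.12%, a separation that neither gene showed.

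TAPBP differed from the other genes in where its nearest peak lay. No library had a peak over its start (33314078 on chromosome 6, minus strand) or over any of the 250 upstream bases printed above, which were covered to 0% in all 6. The corresponding bases of HLA-B, HLA-C, HLA-F, B2M, TAP1 and TAP2 were covered to 100% in all 6. The nearest peak began 328 to 407 bases upstream of the TAPBP start, within the span of the neighbouring gene ZBTB22, and reached 35, 31 and 20 in the silenced libraries and 39, 48 and 37 in the controls. The raw heights were all higher in the controls, as for HLA-E, and the relative heights of 0.972, 0.721 and 1.11 against 1.03, 1.12 and 0.949 overlapped. Its height was near the middle of all start peaks (mean percentile 48.7), but its fold enrichment over the local background was 3.35 to 4.96, near the bottom (mean percentile 3.55). The fold enrichment was 4.05, 3.35 and 3.79 in the silenced libraries and 4.61, 4.96 and 4.32 in the controls, a separation shown in that direction by 7.28% of start peaks. The background that fold and height imply was 4.54 to 8.88 pileup units behind this peak and 0.52 to 4.84 behind the start peaks of the other 8 genes. Taller peaks, described below, stood upstream at the start of ZBTB22 and, on the other side, at the 3′ end of TAPBP. A nearer peak inside the gene was lower. Whether any of them bears on the background was not tested.

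**Figure D2:**
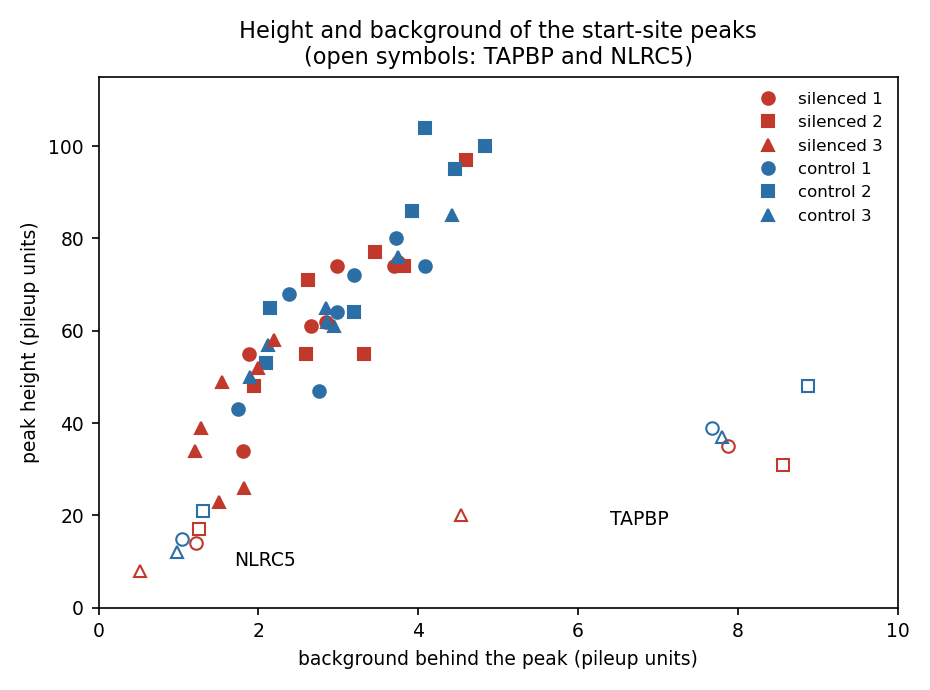
Peak height (y axis, pileup units) against the background implied by the authors' fold enrichment (x axis, pileup units) for the start peaks of the 9 genes, with 1 point per gene and library and open symbols for TAPBP and NLRC5. The TAPBP points lie at a background of 4.54 to 8.88 and NLRC5 lies at the lower left, with heights of 8 to 21.

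Outside the starts, the tallest peaks in the windows belonged to neighbouring genes. The TAPBP window held a peak at the start of ZBTB22 (33317607 to 33318496) with heights of 122, 116 and 75 in the silenced libraries and 90, 110 and 110 in the controls. It also held a peak over its 3′ end and the overlapping gene RGL2 (33299074 to 33300244) with 55, 66 and 31 against 55, 75 and 48, and one further into RGL2 (33297457 to 33298375) with 34, 42 and 23 against 43, 52 and 33. The TAP1 window held the start of PSMB8, another immunoproteasome subunit, with 89, 85 and 54 against 89, 105 and 86. The TAP2 window held the start of HLA-DOB, a class II gene, with 14, 16 and 10 against 20, 20 and 14. In these 5 regions the silenced and control heights overlapped, raw and relative, and silenced replicate 3 was the lowest of the 6 in raw height in each.

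Several genes also had weaker peaks, most of them called in some libraries only. HLA-E had a peak inside the gene (30490082 to 30490402), with heights of 15 and 17 in the first 2 silenced replicates, none in the other, and 14, 21 and 18 in the controls. TAPBP had a similar one (33312716 to 33313023), with 20 and 29, and 24, 27 and 24, again none in silenced replicate 3. HLA-F had a peak near its 3′ end (29737847 to 29738406) in all 6 libraries, with 9, 28 and 10 against 23, 14 and 24. In HLA-C a separate peak inside the gene was listed in silenced replicate 1, at 13, and in all 3 controls, at 16, 20 and 19. Silenced replicate 3 had none. In silenced replicate 2 it was joined with the start peak into 1 interval of 1345 bases, so its absence as a separate entry there is a matter of where the interval was closed. TAP2 had an internal peak (32825860 to 32826378) in 5 of 6 libraries, with 0, 4 and 5 against 7, 7 and 6. The 0 stands for no listed peak in silenced replicate 1, not for a measured height. The raw values were all higher in the controls. The relative heights were 0, 0.0930 and 0.278 against 0.184, 0.163 and 0.154, which overlap through silenced replicate 3 alone. The share of all regions with either pattern was not computed.

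**Figure D3:**
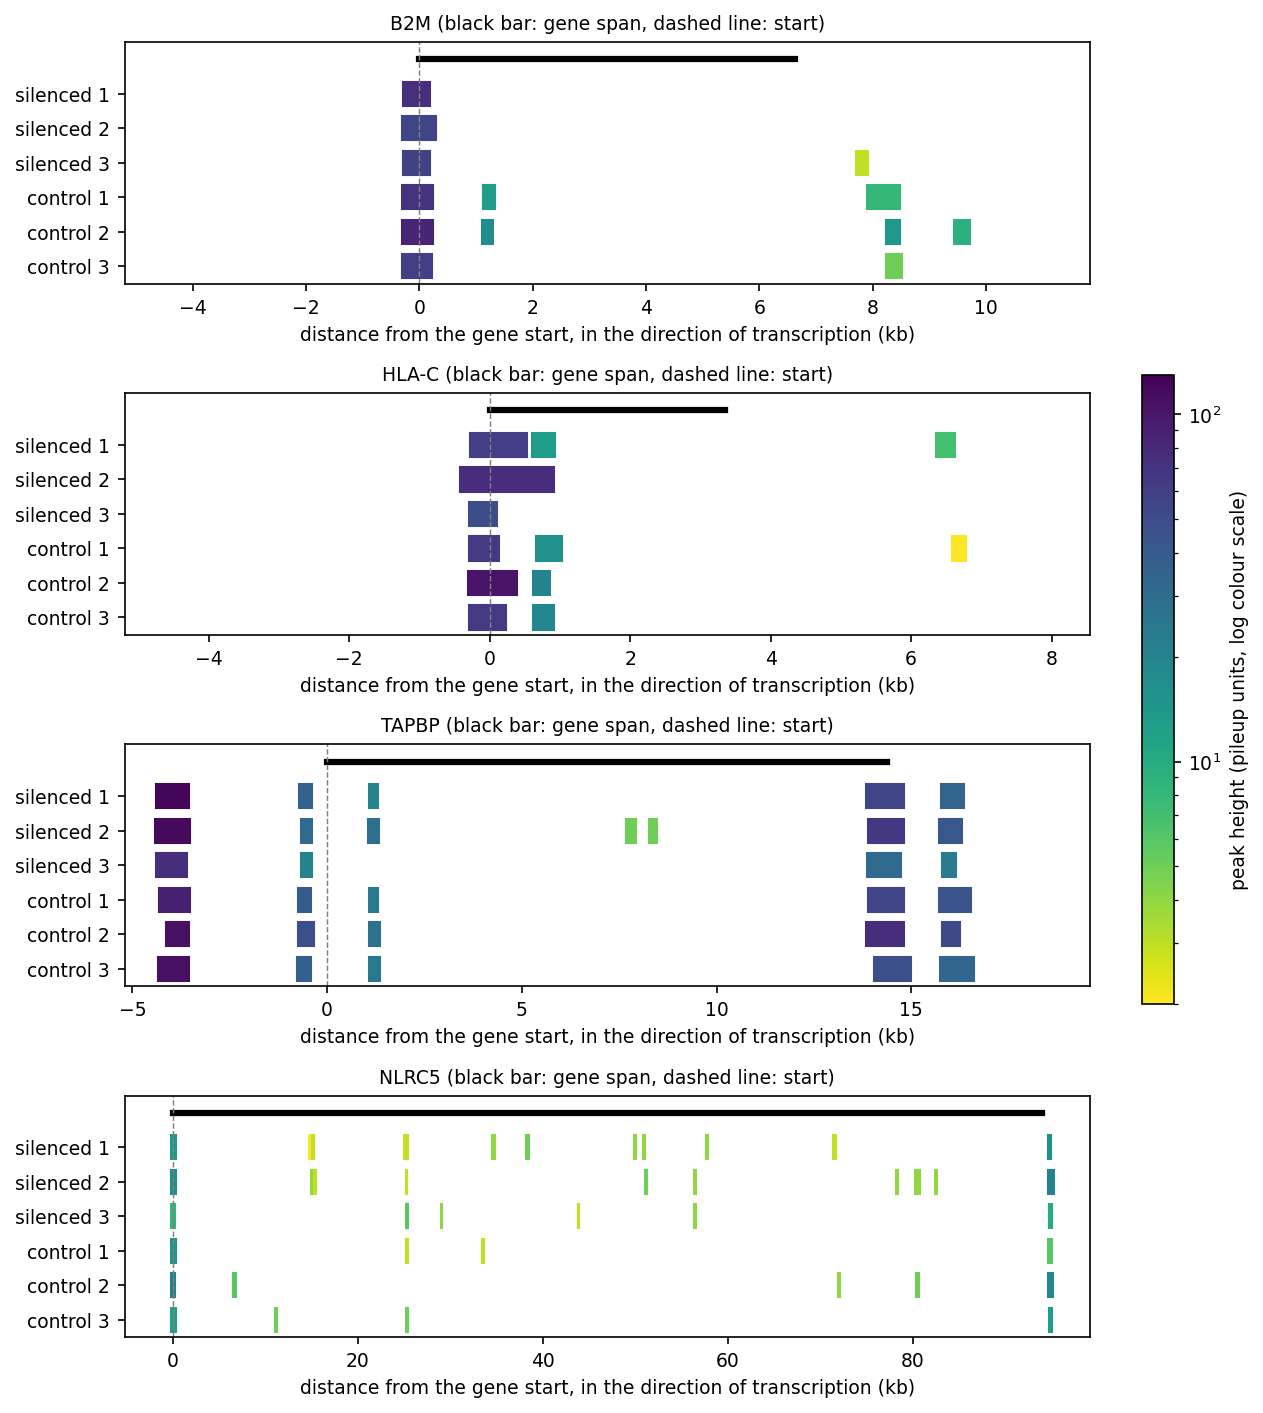
Peaks of each library (rows) around B2M, HLA-C, TAPBP and NLRC5, by distance from the gene start in kb in the direction of transcription (x axis), coloured by height on a log scale, with the gene span as a black bar. The map shows start peaks in every row for B2M, HLA-C and NLRC5, none over the TAPBP start, intervals downstream of B2M that lie mainly in the control rows, and the scattered weak peaks inside NLRC5.

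Peak numbers separated the groups for NLRC5, B2M and HLA-C under at least 1 setting, with more peaks in the silenced libraries for NLRC5 and in the controls for the others. The share of all genes that separate under at least 1 setting was not computed, so the number of genes named here has no background. The shares given below are for 1 setting and 1 direction each. The NLRC5 window held 11, 11 and 6 peaks in the silenced libraries and 4, 5 and 4 in the controls, so every silenced library was above every control library. This held for 1.40% of the 19261 genes with a peak, and the reverse for 1.35%. Among the 6237 genes of at least 50 kb, the class NLRC5 belongs to, it held for 1.25%. The additional peaks were weak: of 20 regions inside the gene, 14 were called in silenced libraries only, 4 in control libraries only and 2 in both, with heights of 2 to 6. Of the 20, 15 were called in a single library. With peaks of a height of at least 4 the numbers were 7, 9 and 5 against 2, 5 and 4, with an FDR under 0.05 they were 3, 4 and 3 against 2, 4 and 4, and with lists of equal size 6, 6 and 5 against 2, 5 and 4. The groups then met or overlapped. The silenced lists held 162115, 167966 and 121406 peaks and the control lists 170882, 91346 and 165674, and the part of list length in the separation was not tested beyond the lists of equal size.

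B2M had more peaks in the controls, with 1, 1 and 2 in the silenced libraries against 3, 4 and 2. A peak inside the gene (44712624 to 44712846) was listed in control replicates 1 and 2 only, at heights of 13 and 17. A downstream region, 1275 to 1888 bases past the end of the gene, was listed in all 3 controls at 8, 14 and 5. The silenced libraries had a single peak there, in silenced replicate 3 at a height of 3 and an FDR of 0.083, and it overlapped the peak of control replicate 1 by 9 bases. On the relative scale its height of 0.167 lay among the control values of 0.211, 0.326 and 0.128. With peaks of an FDR under 0.05, or a height of at least 4, this peak dropped out and the region (44719420 to 44720033) was called in all 3 controls and no silenced library. Under those settings 0.429% and 0.513% of all regions were called that way. The B2M numbers were then 1, 1 and 1 against 3, 4 and 2, a separation shown by 2.25% and 3.06% of genes. With lists of equal size they were 1, 1 and 2 against 3, 4 and 2. At an FDR of at most 1e-05 they were 1, 1 and 1 against 1, 2 and 1. The groups met under both, and no region in the windows was then called in 1 group only. HLA-C separated the groups under an FDR of at most 1e-05 only, with 1 peak in each silenced library and 2 in each control, where 2.01% of genes did. In silenced replicate 2 that 1 peak was the joined interval of 1345 bases, which also spans the internal peak. The HLA-C separation therefore depends on where that interval was closed. Under the 3 settings in which B2M or HLA-C separated the groups, the controls were the higher group in more genes than the silenced libraries. The silenced libraries were higher in 1.10%, 0.50% and 0.122%.

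**Figure D4:**
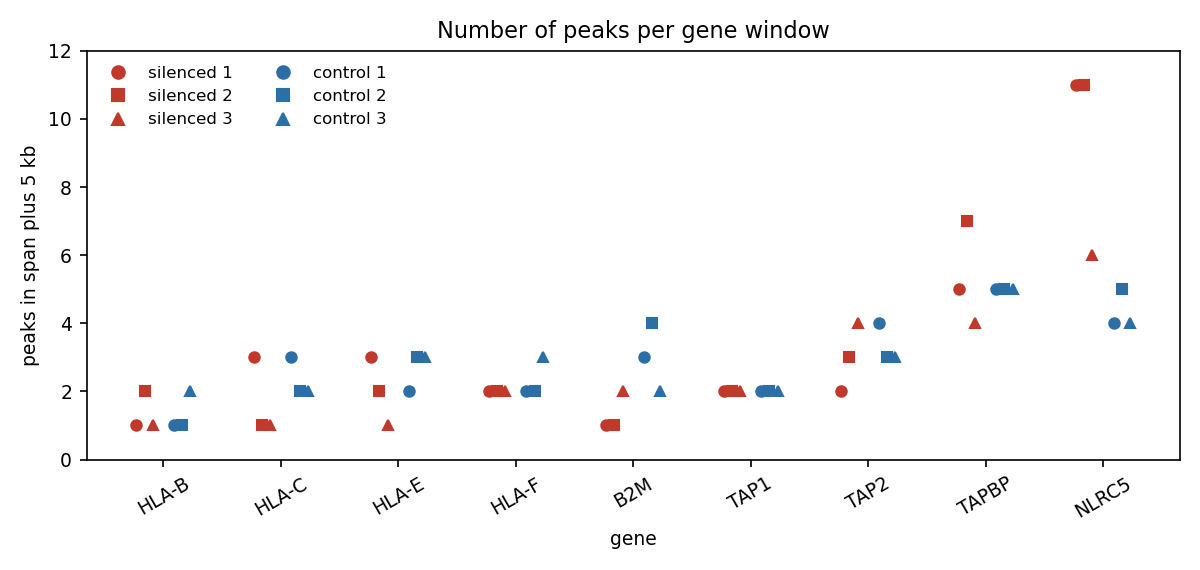
Number of deposited peaks in each gene's span plus 5 kb (y axis, peaks) for the 9 genes (x axis), with 1 point per library, silenced in red and control in blue. NLRC5 has 11, 11 and 6 peaks in the silenced libraries against 4, 5 and 4, B2M leans the other way, and TAP1 has 2 in every library.

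To test for differences between the groups, the strongest peak of each gene was ranked within its library by fold enrichment, the ranks were turned into normal scores (0 for the middle gene, about 1 SD of all genes per unit), and the scores were compared with limma over 16661 genes. No gene passed an adjusted p of 0.05 (0.00% called), and 5.00% of genes had an unadjusted p below 0.05. None of the 9 genes did. The smallest adjusted p over all genes was 0.968, and the labels do not say that replicates came from separate cultures, so these p-values measure only the spread between these samples, which may be technical.

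The score differences of the heavy chains went in both directions. The silenced minus control difference was -0.27 ± 0.25 (SE) for HLA-B, 0.06 ± 0.28 for HLA-C, 0.01 ± 0.25 for HLA-E and -0.14 ± 0.24 for HLA-F. It was 0.21 ± 0.26 for B2M, -0.19 ± 0.26 for TAP1, -0.20 ± 0.25 for TAP2, 0.42 ± 0.23 for TAPBP and 0.25 ± 0.23 for NLRC5. The limma adjusted p-values ran from 0.968 to 0.998. Of the 9 differences, 5 were positive and 4 negative, with a median of 0.01, where over all genes 8639 were positive, 8022 negative and the median was 0.01. The strongest peak was not always the one at the start. For TAP1 and TAPBP it was the one at PSMB8 and the one at ZBTB22. For NLRC5 it was the peak past the 3′ end in the 3 silenced libraries and control replicate 3, and the start peak in the other 2 controls. The standard error was at least 0.23 for each gene, which limits the precision of each difference.

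The regions called in all 6 libraries were also scored one by one. Over 37284 regions none passed an adjusted p of 0.05 (0.00% called) and 4.68% had an unadjusted p below 0.05. Of the 16 regions of these genes, 7 were positive and 9 negative, with a median of -0.10. One had an unadjusted p below 0.05, the region 640 bases past the 3′ end of NLRC5 (57084160 to 57084805 on chromosome 16). Its heights were 16, 20 and 10 in the silenced libraries and 6, 19 and 12 in the controls, which overlap. The relative heights were 0.444, 0.465 and 0.556 against 0.158, 0.442 and 0.308, with every silenced library above every control library, as in 6.06% of the shared regions. Its score difference was 0.83 ± 0.35 (SE), with a limma adjusted p of 0.963. The next in size were the ZBTB22 start region at 0.39 ± 0.23 and the region upstream of TAPBP at -0.32 ± 0.43, which lie beside each other and differ in sign. For the 9 regions at or nearest the starts, 3 differences were positive and 6 negative, with a median of -0.11. The B2M start was at 0.19 ± 0.22, the HLA-B start at -0.21 ± 0.22 and the TAP1 and PSMB9 start at -0.17 ± 0.22. The NLRC5 start was at -0.08 ± 0.30, opposite in sign to the gene's strongest peak, as was the region nearest the TAPBP start.

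**Figure D5:**
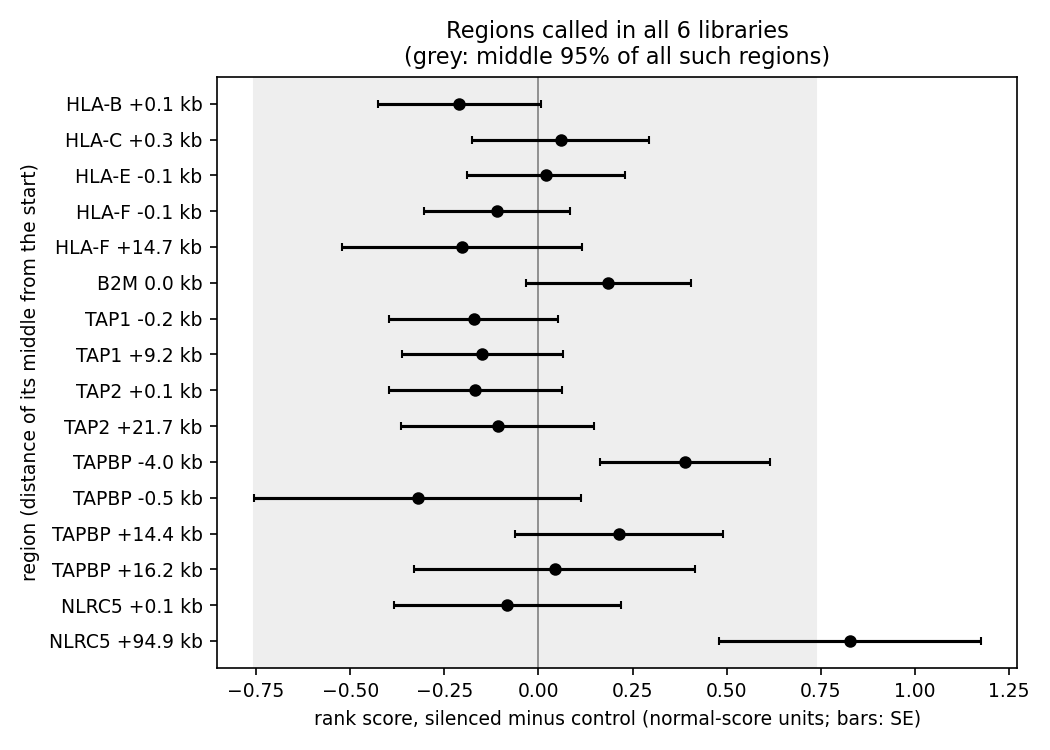
Difference in rank score, silenced minus control (x axis, normal-score units, bars are SE), for the 16 regions called in all 6 libraries, named by gene and by the distance of their middle from its start. The grey band holds the middle 95% of the 37284 regions tested, and 15 of the 16 points lie inside it, the exception being the region past the 3′ end of NLRC5 at 0.83.

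The wider pathway was taken as 21 further genes in 3 roles. All 21 had a peak in all 6 libraries, 0 were called and 0 had an unadjusted p below 0.05, with limma as above. Among 7 genes of peptide supply and trimming, 4 differences were positive and 3 negative, among 4 loading chaperones 3 and 1, and among 10 transcription factors 5 and 5. The median of the 21 was 0.05. The largest difference was that of TAPBPL, a relative of tapasin that edits peptides, at 0.42 ± 0.25 (SE, adjusted p 0.968). The lowest was that of RFXAP, a subunit of the RFX complex that works with NLRC5, at -0.22 ± 0.23 (adjusted p 0.979). PSMB8 and PSMB9 share peaks with TAP1. The PSMB8 value of -0.19 ± 0.26 was the same as that of TAP1, whose strongest peak was the one at PSMB8, so it is not a further value. PSMB9 stood at -0.01 ± 0.23, while the region at the shared TAP1 and PSMB9 start, scored alone, was at -0.17 ± 0.22.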

How the data were processed

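ATAC-seq peak lists of 6 libraries, 3 with DLGAP1-AS2 silenced and 3 controls, were used as deposited. The submitters' processing notes name Trimmomatic 0.36, Bowtie2 2.2.6, Picard 2.8.2, MACS2 2.1.1, bedtools 2.25.0 and GRCh38. Roles, settings, duplicate handling and any transposase shift are not given in the sources used here. Per the file headers, each peak carries a fold enrichment (a ratio), a p-value, an FDR and a pileup signal, here the height. These are the authors' own values per peak, called per library, and serve here for description, ranking and filtering inside one list at a time. No listed p-value exceeded 0.00987. Read totals are unknown, so no counting interval is given.

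Gene spans are from RefSeq GRCh38.p14, and peaks outside chromosomes 1 to 22, X and Y were left out. Peaks overlapping by at least 1 base were merged into regions. Background was computed as (height + 1) / fold - 1. A gene's strongest peak, or a shared region's, was ranked within each library by fold enrichment, turned into normal scores and compared with limma 3.58.1 in R 4.3.3 (mean-dependent prior, Benjamini-Hochberg over all genes or regions), for genes with a peak in all 6 libraries. The code was tested on simulated data. Named are all 9 genes, the regions called in every library or in 1 group only, further pathway genes lacking a peak, past the threshold, extreme in either direction or sharing a peak, and neighbours whose span shares a peak. Weaker peaks were added after their values were seen. The genes, lists and motifs were chosen with earlier results of these data known. Alternatives were ranking by height or p-value, FDR and height limits, lists of equal size, other windows, a constant prior, leaving out each library, and the replicate block. One further leukocyte marker is not reported here.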

Additional observations from a re-analysis of the deposited data

How the results depend on the processing

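No gene or region was called by limma under any alternative run. The smallest limma adjusted p over all genes depended on the setting. It was 0.0637 ranked by height, 0.273 without silenced replicate 3, 0.475 without silenced replicate 2 and 0.519 with a constant prior. In the other runs it was 0.798 or more. Each of the 9 genes kept a peak in every library under every alternative run. The difference in covered length (-0.16 kb, silenced minus control) was -1.56 keeping an FDR under 0.05, 0.569 with 1 kb flanks, and -1.01 (without silenced replicate 2) to 1.37 (without silenced replicate 3), within the SD of the silenced libraries but not that of the controls. The sign of 5 genes turned under some setting. HLA-C (0.06) was -0.043 ranked by p-value, -0.049 by height and -0.047 at the start by height, and -0.22 to 0.31 with 1 library left out. HLA-E (0.01) was -0.18, -0.19 and -0.20 under those, -0.0053 at the start by fold, and -0.23 to 0.16. HLA-F (-0.14) was 0.0050, 0.047 and 0.056. TAPBP (0.42) was -0.25 at the start by fold and -0.16 by height. TAP1 (-0.19) was -0.37 to 0.0027 with 1 library left out, the sign turning without control replicate 2. HLA-B, B2M, TAP2 and NLRC5 kept their sign under these settings, but not their size with 1 library left out. For NLRC5 the settings at the start searched both ends of its span, because its strand was not in the table of starts. They therefore took in the peak past its 3′ end. Scored alone as a region, the NLRC5 start had the opposite sign, at -0.08 ± 0.30 (SE). HLA-B (-0.27) was -0.47 without silenced replicate 3 and -0.0072 without silenced replicate 1, and B2M (0.21) was 0.021 without silenced replicate 3 and 0.48 without silenced replicate 2. TAP2 (-0.20) was -0.45 without silenced replicate 1 and -0.059 without silenced replicate 3, and NLRC5 (0.25) was 0.13 to 0.37 without control replicate 3 or 2. Ranked by height, HLA-B was -0.010, B2M 0.047 and TAP2 -0.031. The difference in peaks per library (1.67, silenced minus control) was -4.33 keeping an FDR under 0.05, -2 keeping 1e-05 or less, -2 with lists of equal size and -0.667 keeping heights of 4 or more. It was 0.167 without silenced replicate 2 and 4.17 without silenced replicate 3. Regions called in 1 group only went from 0 to 1 keeping an FDR under 0.05, and likewise to 1 keeping heights of 4 or more (the B2M downstream region), and were 0 to 3 with 1 library left out: 3 without silenced replicate 3 (2 inside NLRC5, 1 at B2M) and 1 each without silenced replicate 1 (inside NLRC5), control replicate 1 or control replicate 3 (at B2M). Of all regions, 1.23% were called in the silenced libraries only and 0.333% in the controls only without silenced replicate 3, 0.819% and 0.477% without silenced replicate 1, 0.299% and 0.740% without control replicate 1, and 0.306% and 0.735% without control replicate 3. The start ranking by height, the limits on peaks per gene and the midpoint windows for regions called in 1 group were chosen after seeing the data. Same-numbered libraries did not deviate together across genes (r of -0.0256, -0.00122 and -0.0178), so the numbers were not taken as pairs. With the replicate block limma called 0 genes and 0 regions, with 813 genes and 1770 regions at an unadjusted p below 0.05. Without the block these were 833 and 1746. Read depth is unknown. Control replicate 2 lists few peaks below a height of 4, so weak peaks missing there were not readable as absent. The relative heights and their shares were added after seeing the data.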
